A study of Homo sapiens with 8 samples.

Results

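The genes GALNT1, GALNT2, GALNT3, GALNT4, GALNT5, GALNT6, GALNT7, GALNT10, GALNT12 and GALNT14, 10 members of the polypeptide GalNAc-transferase family, were followed across 8 RNA-seq libraries of HCT116, a human colorectal cancer line. They are 10 of the 40295 gene IDs in the deposited table, and the set was chosen because GALNT14 and GALNT4 differ between the 2 lines. Differences between the lines are therefore given as descriptions without a test. The 4 groups, of 2 libraries each, were E33Q MED12 knock-in cells (KI) after 24 h with IFN-γ at 5 ng/ml, untreated KI cells, HCT116 cells without the edit (WT) after the same treatment, and untreated WT cells. All untreated libraries are labelled 0 h, and no untreated library is labelled 24 h. In every comparison of treated with untreated cells, IFN-γ therefore cannot be told apart from 24 h of further culture. E33Q is a change in MED12, a subunit of the kinase module of the Mediator complex, made with CRISPR-Cas9. The labels name only 1 knock-in line, so the effect of the allele cannot be told apart from that of the line that carries it. All 10 genes passed the filter on low counts.

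GALNT enzymes sit in the Golgi and start mucin-type O-glycosylation by moving N-acetylgalactosamine (GalNAc) from UDP-GalNAc to serine or threonine residues of proteins. Some family members act mainly on bare peptides, and others prefer peptides that already carry GalNAc. Other enzymes then lengthen the sugar or cap it with sialic acid, and the colon, whose mucus is built from heavily O-glycosylated mucins, depends on the pathway.

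Libraries held 20901909 to 28045842 estimated counts. The deposited values are counts estimated by the authors with kallisto and need not be whole. Levels below are CPM, counts scaled to library size by TMM, a scaling that assumes most genes do not change. MED12 averaged 31.7 ± 2.3 CPM in KI and 31.3 ± 4.2 CPM in WT cells with IFN-γ, and 12.0 ± 1.2 CPM in untreated KI against 18.7 ± 6.3 CPM in untreated WT cells (SD, n = 2 each). Gene counts do not show the edited codon. IRF1, a transcription factor induced by interferon, was at 344 ± 12 CPM in treated against 11.4 ± 0.1 CPM in untreated KI cells. In WT cells it was at 349 ± 17 CPM in treated against 12.0 ± 2.3 CPM in untreated cells (SD, n = 2 each). The epithelial marker EPCAM was at 115 to 217 CPM in all libraries. From the same list of colon epithelium markers, KRT8 was at 1440 to 3612 CPM and KRT18 at 188.5 to 714.5 CPM. CDH1 was at 24.2 to 56.4 CPM and CDX2 at 2.01 to 7.86 CPM. VIL1, CDH17, GPA33 and LGALS4, markers of differentiated colon epithelium, were at 0 to 1.04 CPM. The summed level of 12 plasma cell genes, immunoglobulins among them, was 272 to 393 CPM in 4 libraries, namely both KI libraries numbered 2 and both untreated WT libraries, and 1.23 to 2.20 CPM in the other 4. With IFN-γ, the mean GC content of the counted transcripts was 48.3 to 48.5%, against 45.7 to 47.1% without it. The share of ERCC spike-in RNA was 0.228 to 0.271% with IFN-γ, against 0.11 to 0.141% without it. The submitters call the libraries of a group biological replicates, and each p-value rests on 2 per group.

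On GRCh38 (GENCODE 29), GALNT14 (ENSG00000158089) lies on the minus strand at chr2:30910467-31155202 and its longest coding transcript has 15 exons. GALNT4 (ENSG00000257594) lies on the minus strand at chr12:89519408-89524806 as a single exon of 5399 bases. GALNT3 (chr2:165747591-165794682) and GALNT5 (chr2:157257598-157314211) share chromosome 2 with GALNT14, and GALNT6 (chr12:51351247-51392867) shares chromosome 12 with GALNT4. GALNT2 is at chr1:230057990-230282124, GALNT1 at chr18:35581117-35711834, GALNT7 at chr4:173168753-173323967, GALNT10 at chr5:154190730-154420984 and GALNT12 at chr9:98807699-98850081. GALNT6 overlaps SLC4A8 on the opposite strand and GALNT10 overlaps MFAP3 on the same strand, so reads in the shared stretches are uncertain. RefSeq upstream windows of 250 bases (GRCh38.p14) were at hand for 7 of the 10 genes. Those of GALNT14 and GALNT3, both lower in KI cells, and of GALNT2, which rose with IFN-γ under TMM scaling, are printed 5′ to 3′ on the gene's strand with CpG dinucleotides in capitals.
GALNT14 start site 1, chr2:31138441-31138690, minus strand: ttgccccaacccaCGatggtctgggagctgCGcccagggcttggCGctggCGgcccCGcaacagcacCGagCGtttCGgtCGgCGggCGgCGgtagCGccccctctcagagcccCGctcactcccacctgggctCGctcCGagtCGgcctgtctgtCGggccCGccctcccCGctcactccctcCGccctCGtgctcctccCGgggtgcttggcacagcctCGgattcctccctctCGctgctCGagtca
GALNT14 start site 2, chr2:31129641-31129890, minus strand: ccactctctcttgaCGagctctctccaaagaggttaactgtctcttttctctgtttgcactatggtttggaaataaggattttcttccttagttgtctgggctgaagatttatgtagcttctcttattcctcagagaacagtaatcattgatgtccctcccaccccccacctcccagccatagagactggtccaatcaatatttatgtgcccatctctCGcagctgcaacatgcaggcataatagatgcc
GALNT3, chr2:165794248-165794497, minus strand: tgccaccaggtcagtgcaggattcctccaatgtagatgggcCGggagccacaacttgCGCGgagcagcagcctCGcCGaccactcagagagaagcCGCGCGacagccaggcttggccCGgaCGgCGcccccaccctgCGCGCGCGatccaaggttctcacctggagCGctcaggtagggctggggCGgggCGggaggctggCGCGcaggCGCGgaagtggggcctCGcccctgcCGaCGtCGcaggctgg
GALNT2, chr1:230066988-230067237, plus strand: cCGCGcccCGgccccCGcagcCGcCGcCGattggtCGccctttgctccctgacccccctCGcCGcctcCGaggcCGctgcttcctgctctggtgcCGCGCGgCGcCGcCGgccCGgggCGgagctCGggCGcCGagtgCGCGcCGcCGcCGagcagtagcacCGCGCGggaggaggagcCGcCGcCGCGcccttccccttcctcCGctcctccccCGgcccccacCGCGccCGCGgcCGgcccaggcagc
The first GALNT14 window held 26 CpGs at 72.4% GC, with an observed over expected CpG ratio of 0.824, and the second held 2 CpGs at 45.2% GC, with a ratio of 0.165. GALNT3 had 26 CpGs at 71.6% GC and GALNT2 had 42 CpGs at 82.8% GC, against medians of 11 CpGs and 58% GC over 35114 promoters. DNA methylation was not measured in this series. The gamma-activated site TTCNNNGAA and the core of the interferon-stimulated response element, GAAA repeated after 2 bases of any kind, were searched on both strands. Neither was found in any of the 10 windows of the 7 genes, against 6.57% of all promoters with the first motif and 3.02% with the second. No match says only that these letters are not in these windows.

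GALNT14 RNA was close to absent from KI cells with and without IFN-γ and clearly present in WT cells. The enzyme is related in sequence to GALNT2 and is known for adding O-glycans to death receptors of the TRAIL pathway. KI cells with IFN-γ had 2 and 8 counts (0.073 and 0.319 CPM) and untreated KI cells 3 and 2 counts (0.167 and 0.082 CPM). WT cells had 496 and 451 counts (18.9 and 18.4 CPM) with IFN-γ, and 321 and 293 counts (14.8 and 14.7 CPM) without it. Every KI library was far below every WT library, and the 2 libraries of each WT group were close in CPM, while those of the KI groups, at 2 to 8 counts, were not. Summed over libraries and scaled, GALNT14 was 97.8 times lower in KI than in WT cells with IFN-γ, from 10 against 947 counts. Without treatment it was 125 times lower, from 5 against 614 counts. These ratios rest on few KI counts, so their size is uncertain. They describe a difference for which the gene was chosen. The fitted line difference was −6.56 ± 0.42 (log2, SE) with IFN-γ and −6.89 ± 0.46 without it. With IFN-γ it was −7.89 without the second and −5.85 without the first treated KI library, whose counts of 8 and 2 set the range.

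GALNT4 had counts in all 4 KI libraries and in 1 of 4 WT libraries, but the RNA it shares with a read-through gene differed far less. GALNT4 prefers glycopeptides and is known for modifying PSGL-1, the ligand of P-selectin on leukocytes. Its level was 3.08 and 4.91 CPM in KI cells with IFN-γ and 7.58 and 5.21 CPM in untreated KI cells. WT cells with IFN-γ had 0 and 2.78 CPM, and both untreated WT libraries were at 0. A value of 0 here means that kallisto gave GALNT4 no counts. Reads from sequence shared with the read-through gene can be given to either gene. An absence of GALNT4 RNA cannot be told apart from such a split, so no ratio of CPM is given against 0.

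The single-exon GALNT4 lies within the read-through gene POC1B-GALNT4 on the same strand, which joins it to exons of POC1B, a gene for a centriole protein. Of the 5369 31-base words of the GALNT4 transcript in GENCODE 29, 93.2% also occur in POC1B-GALNT4 and 0% in POC1B. The 365 words of its own all start within the first 365 bases of the transcript. With this annotation kallisto would have only that stretch to place a read on GALNT4 alone. The annotation that the authors used is not given. POC1B-GALNT4 was at 13.1 and 9.85 CPM in KI cells with IFN-γ, 14.3 and 12.5 CPM in untreated KI cells, 13.2 and 9.23 CPM in WT cells with IFN-γ, and 12.6 and 11.1 CPM in untreated WT cells. GALNT4 was given 19.1 and 33.3% of the counts of the 2 genes in treated KI cells, 34.7 and 29.4% in untreated KI cells, 0 and 23.2% in treated WT cells and 0 and 0% in untreated WT cells. Summed, the 2 genes were at 16.2 and 14.8 CPM in KI cells and 13.2 and 12.0 CPM in WT cells with IFN-γ. Their sum was at 21.9 and 17.7 CPM in untreated KI cells against 12.6 and 11.1 CPM in untreated WT cells. The KI libraries were higher in both conditions, by 0.30 ± 0.18 (log2, SE) with IFN-γ and 0.74 ± 0.18 without it, against fitted values of 1.53 and 10.2 for GALNT4 alone. The fitted 10.2 is set against WT values of 0, and its size is not read as a fold. POC1B itself, from 14 transcripts that hold none of the GALNT4 words, did not pass the test between the lines, with a log2 difference of 0.28 ± 0.19 with IFN-γ (edgeR adjusted p = 0.55) and 0.66 ± 0.19 without it (adjusted p = 0.060).

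**Figure D1:**
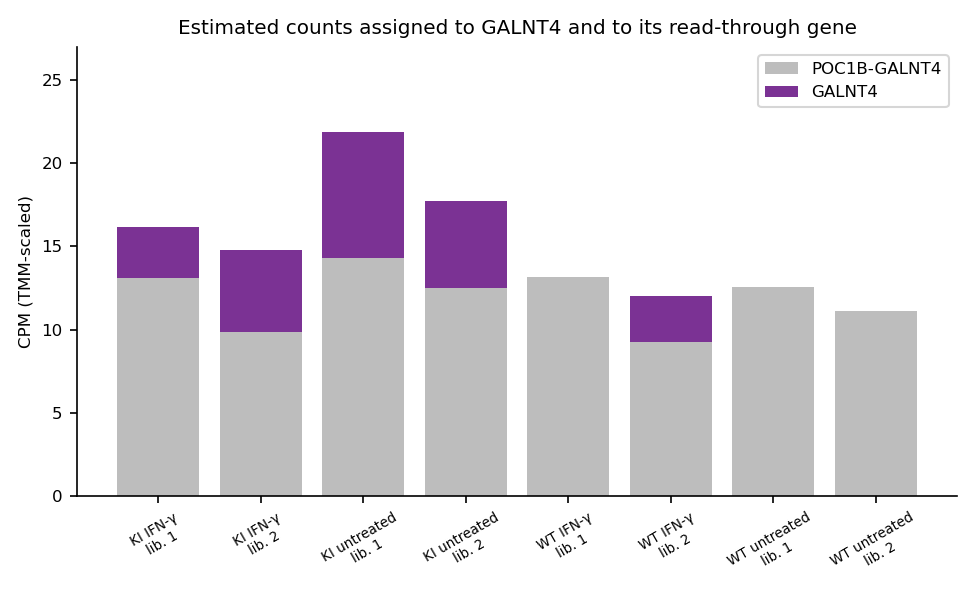
Estimated counts given to GALNT4 (purple) and to the read-through gene POC1B-GALNT4 (grey) in each of the 8 libraries, stacked, in CPM after TMM scaling. The KI stacks reach 14.8 to 21.9 CPM and the WT stacks 11.1 to 13.2 CPM, while a purple share appears in all 4 KI libraries and in 1 WT library.

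Apart from GALNT14 and GALNT4, the clearest line difference was in GALNT3, which is known for protecting the hormone FGF23 from cleavage by O-glycosylation. GALNT3 was at 5.75 and 8.82 CPM in KI against 22.9 and 24.8 CPM in WT cells with IFN-γ, and at 14.4 and 14.2 CPM in untreated KI against 35.0 and 43.5 CPM in untreated WT cells. The log2 difference was −1.71 ± 0.22 with IFN-γ and −1.46 ± 0.22 without it. GALNT6, the closest relative of GALNT3, was at 23.0 and 24.3 CPM in treated KI against 36.5 and 39.4 CPM in treated WT cells, and at 13.4 and 10.96 CPM in untreated KI against 31.3 and 22.0 CPM in untreated WT cells. All KI libraries of both genes were below the WT libraries of the same treatment.

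GALNT2, a broadly expressed enzyme that acts on many bare peptides, was at 40.0 and 37.1 CPM in treated KI against 59.3 and 64.2 CPM in treated WT cells, and at 19.2 and 13.9 CPM in untreated KI against 32.1 and 27.3 CPM in untreated WT cells. GALNT5, an enzyme with a long stem region, was at 19.1 to 21.3 CPM in the 4 KI libraries and at 27.3 to 32.6 CPM in the 4 WT libraries. For the remaining 4 genes the log2 line difference was smaller, from −0.39 (GALNT12) to 0.29 (GALNT10) with IFN-γ and from −0.20 (GALNT10) to 0.42 (GALNT1) without it. In CPM, both KI libraries lay below both WT libraries for 7 of the 10 genes with IFN-γ and for 5 of 10 without it, against 29.9% and 25.1% of all 16519 tested genes. They lay above them for 3 of 10 genes with IFN-γ and 2 of 10 without it, against 27.8% and 25.5% of all tested genes. The genes were chosen from these contrasts, and nothing is read from these numbers of genes.

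**Figure D2:**
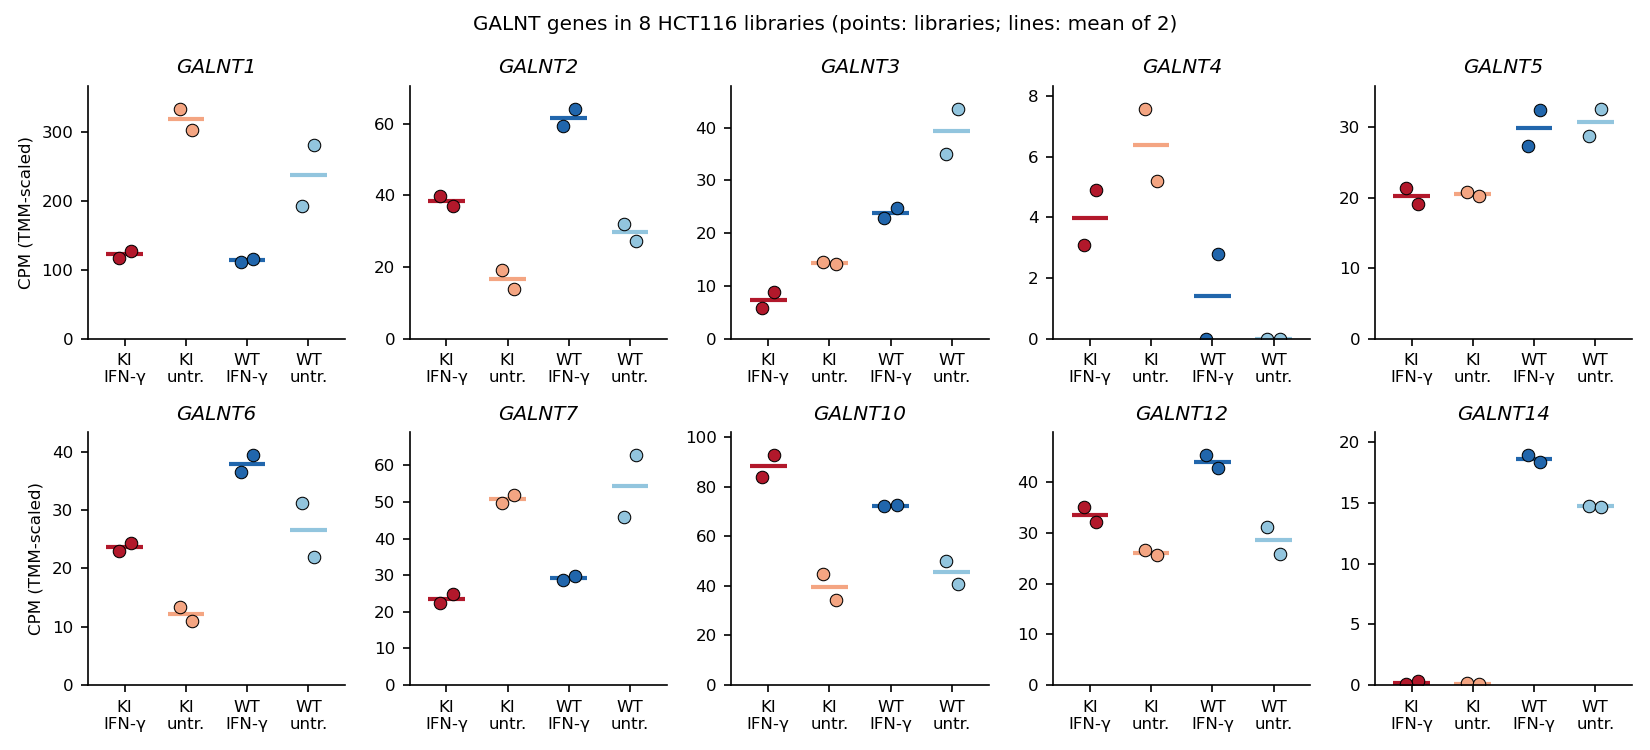
CPM after TMM scaling of the 10 GALNT genes, 1 panel per gene with its own vertical axis from 0, in KI and WT cells with 24 h of IFN-γ or untreated (points, libraries; lines, mean of 2). GALNT14 lies at 0.319 CPM or less in KI and at 14.7 to 18.9 CPM in WT cells, and GALNT2, GALNT3, GALNT5 and GALNT6 lie lower in KI libraries in both conditions.

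With IFN-γ the balance among the 10 genes differed from that in untreated cells in both lines, in values not corrected for GC content. With the GC and length trend removed, 2 of the 10 genes were called in KI and 3 in WT cells. Of all tested genes, 30.5% and 24.5% were then called. GALNT1, the member with the highest level, was then at a log2 fold change of −0.28 in KI and −0.27 in WT cells. In these bulk samples a change in RNA per cell cannot be told apart from a change in the mix of cells. Under TMM scaling, GALNT2, GALNT10 and GALNT6 rose in KI cells and GALNT1, GALNT7 and GALNT3 fell, 6 of 10 genes by edgeR's quasi-likelihood test (adjusted p under 0.05), where 52.1% of all tested genes were called (26.4% higher and 25.8% lower). In WT cells GALNT2, GALNT10, GALNT12 and GALNT4 were called higher and GALNT1, GALNT7 and GALNT3 lower, 7 of 10 against 37.9% of all tested genes (17.1% higher and 20.8% lower). Of these, GALNT10 and GALNT12 turned negative with ERCC scaling (log2 −0.15 and −0.19). The GALNT4 call rests on the second treated WT library, at 2.78 CPM with 0 in the other WT libraries. Summed with its read-through gene, GALNT4 had 0.09 ± 0.18 (adjusted p = 0.74), and 6 of 10 genes were called. In WT cells the summed plasma cell markers moved with treatment, at 1.91 and 1.23 CPM in treated against 349 and 393 CPM in untreated libraries, and their part in the WT responses was not tested. The median log2 response of the 10 genes was 0.17 in KI and 0.43 in WT cells, against 0.12 and 0.08 over all tested genes. The WT median takes GALNT4 at its fitted 8.02 and not at the summed value. Scaling to the ERCC spike-ins moved the median response of all tested genes to −0.41 in KI and −0.72 in WT cells. Under that scaling 0 of the 10 genes were called higher and 4 lower in each line, where 36.9% of all tested genes were called in KI and 42.2% in WT cells. Each rise below is thus relative to the other genes of the same library.

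GALNT2 was at 40.0 and 37.1 CPM in treated against 19.2 and 13.9 CPM in untreated KI cells, and at 59.3 and 64.2 CPM in treated against 32.1 and 27.3 CPM in untreated WT cells. Its log2 fold change was 1.22 ± 0.18 in KI (adjusted p = 0.00059) and 1.05 ± 0.18 in WT cells (adjusted p = 0.0020), and treated libraries lay above untreated ones in both lines. With ERCC scaling it was 0.69 and 0.23 (adjusted p = 0.065 and 0.51). GALNT10, which prefers glycopeptides, was at 83.9 and 92.7 CPM in treated against 45.0 and 34.4 CPM in untreated KI cells, and at 72.2 and 72.5 CPM in treated against 50.3 and 41.0 CPM in untreated WT cells. It changed by 1.15 ± 0.17 in KI (adjusted p = 0.00052) and by 0.67 ± 0.17 in WT cells (adjusted p = 0.013). It had 0.62 and −0.15 under ERCC scaling (adjusted p = 0.085 and 0.67). GALNT6 changed by 0.96 ± 0.20 in KI cells (adjusted p = 0.0031) and had a log2 fold change of 0.51 ± 0.19 in WT cells (adjusted p = 0.065). It had 0.43 and −0.33 under ERCC scaling (adjusted p = 0.30 and 0.41). GALNT12, an enzyme abundant in colon whose inherited variants have been linked to colorectal cancer, was at 35.1 and 32.2 CPM in treated against 26.7 and 25.6 CPM in untreated KI cells, and at 45.3 and 42.9 CPM in treated against 31.2 and 25.9 CPM in untreated WT cells. It changed by 0.63 ± 0.15 in WT cells (adjusted p = 0.010) and had a value of 0.36 ± 0.15 in KI cells (adjusted p = 0.067), with −0.19 and −0.17 under ERCC scaling. In WT cells the GALNT10 call ended without the second untreated library (0.53, adjusted p = 0.055), the first treated library (0.66, adjusted p = 0.070) or the second treated library (0.66, adjusted p = 0.066). The GALNT12 call ended without the first treated library (0.58, adjusted p = 0.078).

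GALNT1, a broadly expressed enzyme acting on bare peptides, showed the largest fall of the 10 genes in both lines under TMM scaling. With the GC and length trend removed, the value of GALNT3 in KI and of GALNT7 in WT cells was lower than that of GALNT1. GALNT1 was at 118 and 128 CPM in treated against 334 and 303 CPM in untreated KI cells, and at 112 and 116 CPM in treated against 193 and 282 CPM in untreated WT cells. Its log2 fold change was −1.38 ± 0.18 in KI (adjusted p = 0.00030) and −1.06 ± 0.17 in WT cells (adjusted p = 0.0018). No treated library reached an untreated one. GALNT7, another enzyme that prefers glycopeptides, was at 22.4 and 24.8 CPM in treated against 49.8 and 51.9 CPM in untreated KI cells, and at 28.7 and 29.7 CPM in treated against 46.0 and 62.7 CPM in untreated WT cells. It changed by −1.11 ± 0.17 in KI (adjusted p = 0.00066) and −0.90 ± 0.17 in WT cells (adjusted p = 0.0033). GALNT3, whose per-library levels are given above, changed by −0.97 ± 0.22 in KI (adjusted p = 0.0047) and −0.72 ± 0.21 in WT cells (adjusted p = 0.024). The WT call of GALNT3 ended without the second untreated library (−0.56, adjusted p = 0.12), the first treated library (−0.67, adjusted p = 0.13) or the second treated library (−0.78, adjusted p = 0.084). All 3 falls kept their direction under ERCC scaling, at −1.91 to −1.51 in both lines. With the GC and length trend removed they were smaller, at −0.32 to −0.27, and of these calls only that of GALNT1 in KI cells was kept. GALNT3 was then −0.31 in KI and −0.27 in WT cells (adjusted p = 0.25 and 0.30).

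Under TMM scaling GALNT5 and GALNT14 did not pass the test in either line. GALNT5 had a log2 fold change of −0.03 ± 0.16 in KI and −0.04 ± 0.16 in WT cells (adjusted p = 0.91 and 0.87). With ERCC scaling it was the fourth gene called lower, at −0.56 in KI and −0.84 in WT cells (adjusted p = 0.046 and 0.0056). GALNT14 had 0.34 ± 0.29 in WT cells (adjusted p = 0.38), and in KI cells 0.67 ± 0.70 (adjusted p = 0.47) from 10 treated and 5 untreated counts. The GALNT4 call in WT cells, a fitted 8.02 ± 2.62 with an adjusted p of 0.042, rests on the second treated library, without which it was 0.00. It also ended without either untreated WT library (7.99 and 8.04, adjusted p = 0.13 and 0.15) or either untreated KI library (8.06 and 8.01, adjusted p = 0.053 and 0.054). With GALNT4 and POC1B-GALNT4 summed, the response was −0.36 ± 0.18 in KI (adjusted p = 0.13) and 0.09 ± 0.18 in WT cells (adjusted p = 0.74). In KI cells GALNT4 alone had −0.68 ± 1.11 (adjusted p = 0.65).

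**Figure D3:**
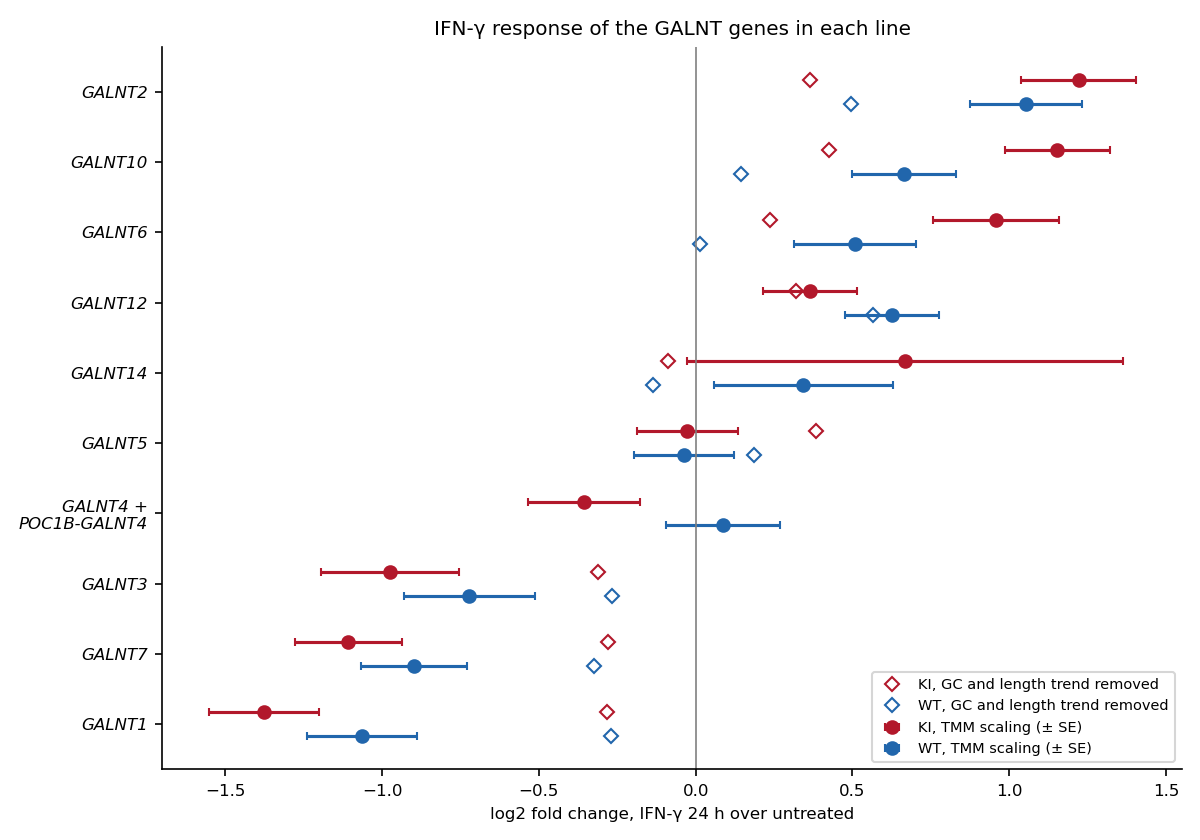
Log2 fold change of IFN-γ over untreated cells for the GALNT genes (filled circles, TMM scaling, bars ± SE; open diamonds, with the trend on GC content and length taken out), with KI above WT for each gene and GALNT4 shown summed with POC1B-GALNT4, which has no diamond. Diamonds lie nearer to 0 than circles for every gene with a diamond except GALNT5, and those of GALNT14 lie on the other side of 0. The GALNT5 diamonds lie further from 0, at 0.385 in KI and 0.187 in WT cells. Under ERCC scaling GALNT6, GALNT10, GALNT12 and GALNT14 were negative in WT cells and GALNT12 in KI cells.

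GC content differed between members that rose and members that fell, with exceptions, and the relation was not tested. GALNT1, GALNT3 and GALNT7, which fell, have transcripts of 36.3, 40.8 and 38.8% GC, while GALNT2, GALNT6, GALNT10 and GALNT12 have 55.7, 52.5, 52.0 and 49.3% GC. GALNT5, at 40.9% GC, and GALNT14, at 58.8% GC, were not called in either line. GALNT4, at 39.5% GC, was called higher in WT cells, where only the second treated library had counts. With the GC and length trend of each library taken out, 2 of the 10 genes were called in KI cells, GALNT10 at 0.43 (adjusted p = 0.020) and GALNT1 at −0.28 (adjusted p = 0.040), where 30.5% of all tested genes were called. In WT cells GALNT12 at 0.56 (adjusted p = 0.012), GALNT2 at 0.49 (adjusted p = 0.026) and GALNT4 at 8.27 (adjusted p = 0.043) were called, against 24.5% of all tested genes. GALNT2 in KI cells was then 0.36 (adjusted p = 0.079), and GALNT1 in WT cells −0.27 (adjusted p = 0.058). GALNT7 was at −0.28 in KI (adjusted p = 0.085) and −0.32 in WT cells (adjusted p = 0.058). The part of the GC shift of the libraries in these responses was not tested further.

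No member passed the test for a difference between the lines in its response. Of all 16519 tested genes edgeR called 0 for the difference, with 1119 at an unadjusted p under 0.05, or 6.77%, while DESeq2 called 4 and limma-voom 0 (999 and 1180 at an unadjusted p under 0.05). The KI minus WT difference of the log2 responses was 0.49 ± 0.23 for GALNT10 (adjusted p = 0.69), 0.45 ± 0.28 for GALNT6 (adjusted p = 0.69), −0.31 ± 0.24 for GALNT1 (adjusted p = 0.72) and −0.26 ± 0.21 for GALNT12 (adjusted p = 0.72). GALNT2, GALNT3, GALNT5, GALNT7 and GALNT14 lay between −0.25 and 0.33, and GALNT4, given its WT zeros, at −8.70 ± 2.97 (adjusted p = 0.69) or at −0.44 ± 0.25 when summed with its read-through gene. Plasma cell RNA was in both KI libraries numbered 2, and in WT cells in both untreated but neither treated library, so that it moves with the WT response and with the difference. Its part in these was not tested. Without that pair of libraries 5 of the 10 genes were called in KI cells, all of the 6 except GALNT6 (0.77, adjusted p = 0.12).

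Per kb of transcript, GALNT1 led the 10 genes in every group. Its mean level was 31.9 ± 1.8 CPM per kb in treated KI cells, 82.8 ± 5.6 in untreated KI cells, 29.6 ± 0.8 in treated WT cells and 61.8 ± 16.3 in untreated WT cells (SD, n = 2 each). That was 38.1% of the sum of the 10 genes in treated KI cells, 66.2% in untreated KI cells, 28.5% in treated WT cells and 49.5% in untreated WT cells. Levels and shares here are not corrected for GC content, which differed between treated and untreated libraries. With IFN-γ, GALNT10 came second in KI cells at 14.8 ± 1.0 CPM per kb, followed by GALNT12 at 12.3 ± 0.7 and GALNT2 at 8.65 ± 0.46. In treated WT cells the order was GALNT12 at 16.1 ± 0.6, GALNT2 at 13.9 ± 0.8 and GALNT10 at 12.1 ± 0.04 CPM per kb, with no overlap between neighbours. Untreated, GALNT7 came second in KI cells (11.8 ± 0.3 CPM per kb) and in WT cells (12.6 ± 2.8), where it overlapped GALNT12 (10.4 ± 1.4), which overlapped GALNT3 (10.2 ± 1.6). GALNT2 and GALNT3 also overlapped in untreated KI cells, at 3.72 ± 0.84 and 3.70 ± 0.05 CPM per kb. The lowest place was held by GALNT14 in both KI groups, at 0.072 ± 0.064 with and 0.046 ± 0.022 CPM per kb without IFN-γ. In WT cells it was held by GALNT4, while GALNT14 ranked sixth with IFN-γ (6.83 ± 0.13, overlapping GALNT7) and seventh without it (5.39 ± 0.02, overlapping GALNT6). All ranks are among the 10 genes only and leave out other family members. GALNT11 averaged 23.03 CPM per kb in untreated KI and 21.19 in untreated WT cells, and 13.15 and 13.69 with IFN-γ. GALNT18 averaged 17.8 CPM per kb in treated and 11.97 in untreated WT cells, and 8.06 and 4.53 in KI cells.

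The summed level of the 10 genes was 352 and 372 CPM in treated and 531 and 480 CPM in untreated KI cells. In WT cells it was 422 and 443 CPM with IFN-γ and 463 and 552 CPM without it. Treated libraries lay below untreated ones in both lines, and in both lines the gap between the group means was smaller than that of GALNT1 alone.

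**Figure D4:**
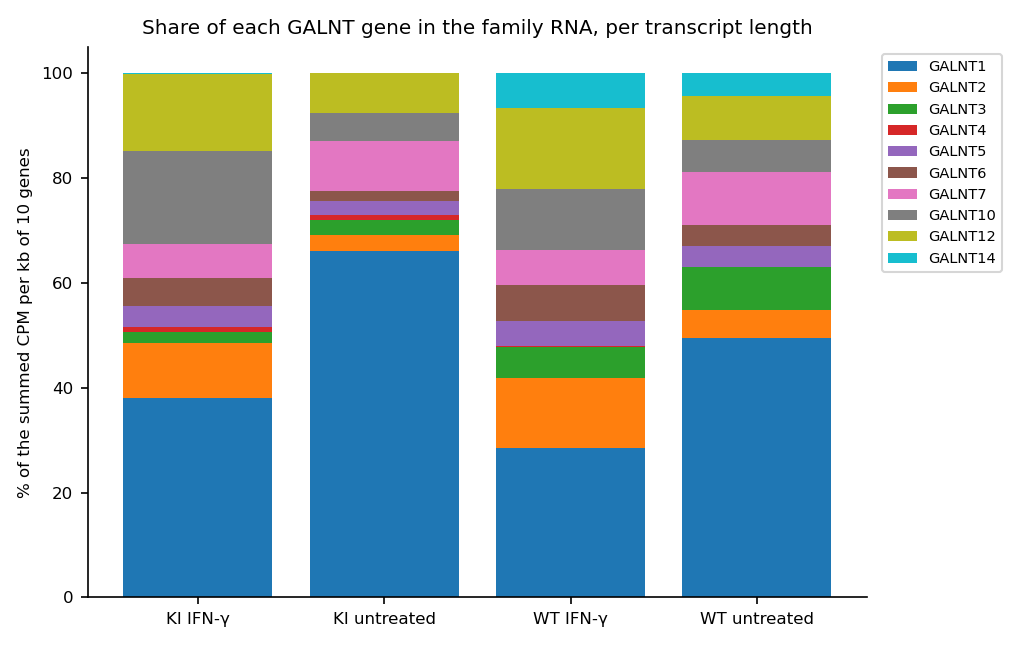
Share of each GALNT gene in the summed CPM per kb of the 10 genes, from the mean of 2 libraries in each group, not corrected for GC content. GALNT1 makes up 38.1% in treated and 66.2% in untreated KI cells and 28.5% in treated and 49.5% in untreated WT cells, and GALNT14 makes up 6.58% in treated and 4.32% in untreated WT cells against at most 0.086% in KI cells.

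Among 56 other genes of the O-glycosylation pathway, of which 39 were tested, 1 was higher and 2 were lower in KI than in WT cells with IFN-γ, and 4 were higher and 3 lower without it, against 2.91% of all tested genes called with IFN-γ (1.63% higher and 1.28% lower) and 8.43% without it (4.26% higher and 4.17% lower). The median log2 line difference was −0.06 with IFN-γ and 0.04 without it, against −0.01 and −0.02 over all tested genes. GALNT18, a further family member, was at 19.1 and 21.3 CPM in treated KI against 40.9 and 48.3 CPM in treated WT cells, and at 11.8 and 10.9 CPM in untreated KI against 35.4 and 24.6 CPM in untreated WT cells. It was lower in KI cells by −1.14 ± 0.20 with IFN-γ (adjusted p = 0.015) and −1.40 ± 0.20 without it (adjusted p = 0.0044). The call with IFN-γ ended without any 1 of 4 libraries (−1.25 to −1.02, adjusted p = 0.061 to 0.16) and with ERCC scaling (−1.19, adjusted p = 0.11). MUC13, a membrane mucin of the intestinal surface, stood out among the acceptors. It was at 8.94 and 8.10 CPM in treated KI against 0.114 and 0.408 CPM in treated WT cells, and at 6.46 and 5.38 CPM in untreated KI against 0.092 and 0.200 CPM in untreated WT cells. Its log2 difference was 5.01 ± 0.52 with IFN-γ (adjusted p = 0.0011) and 5.30 ± 0.57 without it (adjusted p = 0.0011). Both calls held without any 1 library.

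GCNT1, which branches the O-glycan core, was lower in KI cells by −0.86 ± 0.18 with IFN-γ (adjusted p = 0.037) and −0.78 ± 0.18 without it (adjusted p = 0.033). Each of these calls ended without any 1 of 6 libraries, at −0.98 to −0.75 with IFN-γ (adjusted p = 0.064 to 0.38) and −0.79 to −0.77 without it (adjusted p = 0.062 to 0.15), and the first also with ERCC scaling (adjusted p = 0.11). ST6GALNAC3, a sialyltransferase that caps O-glycans, was at 9.19 and 7.88 CPM in untreated KI against 2.44 and 2.61 CPM in untreated WT cells (log2 1.76 ± 0.29, adjusted p = 0.0091, and 1.65 with adjusted p = 0.062 without the first untreated KI library). The untreated call of ST3GAL1 (−0.76 ± 0.19, adjusted p = 0.040) ended without any 1 of 7 libraries (−0.91 to −0.56, adjusted p = 0.077 to 0.17) and with ERCC scaling (−1.11, adjusted p = 0.059). That of GFPT1, the first enzyme of the hexosamine pathway (0.56 ± 0.11, adjusted p = 0.021), ended without any 1 of 6 (0.50 to 0.61, adjusted p = 0.058 to 0.13) and with ERCC scaling (0.23, adjusted p = 0.39). The fourth gene called higher without IFN-γ was GCNT4, at under 5 CPM.

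With IFN-γ, 12 of the 39 tested pathway genes rose and 13 fell in KI cells, and 8 rose and 11 fell in WT cells, under TMM scaling, where 52.1% of all tested genes were called in KI and 37.9% in WT cells. With the trend on GC content and length removed, 5 rose and 7 fell in KI cells and 4 rose and 6 fell in WT cells, against 30.5% and 24.5% of all tested genes called. With ERCC scaling 1 rose and 16 fell in KI cells and 0 rose and 15 fell in WT cells, against 36.9% and 42.2%. The counts of each list below stand beside these shares. The median log2 response of the 39 was 0.16 in KI and 0.10 in WT cells, against 0.12 and 0.08 over all tested genes.

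Supply of the sugar donor showed 1 rise and 5 falls among 8 tested genes in KI cells and 0 rises and 4 falls in WT cells. There were 0 rises and 2 falls in each line with the trend removed, and with ERCC scaling 0 rises and 5 falls in KI and 0 rises and 6 falls in WT cells. PGM3, which makes a phosphorylated GlcNAc intermediate, was at 83.9 and 78.8 CPM in treated against 258 and 235 CPM in untreated KI cells, and at 75.4 and 71.7 CPM in treated against 145 and 198 CPM in untreated WT cells. It fell by 1.60 ± 0.16 in KI (log2, adjusted p = 0.00018) and by 1.22 ± 0.16 in WT cells (adjusted p = 0.00072). With the GC and length trend removed it fell by 0.98 and 0.84 (adjusted p = 0.00013 and 0.00036). UAP1, which forms the UDP sugar, fell by 0.89 ± 0.15 in KI (adjusted p = 0.00099) and 0.83 ± 0.15 in WT cells (adjusted p = 0.0025). GNPNAT1 fell by 0.90 ± 0.12 in KI (adjusted p = 0.00035) and 0.56 ± 0.12 in WT cells (adjusted p = 0.0059). With the trend removed the values were −0.13 and −0.04 (adjusted p = 0.43 and 0.84). Its WT call ended without the second treated library (−0.51, adjusted p = 0.067). GALK2, a kinase of GalNAc salvage, had −0.70 ± 0.16 in KI (adjusted p = 0.0049) and −0.59 ± 0.16 in WT cells (adjusted p = 0.017). Its calls ended with the trend removed (−0.09 and −0.21, adjusted p = 0.63 and 0.23), without the first treated KI library in KI cells (−0.62, adjusted p = 0.059) and without any 1 of 3 libraries in WT cells (−0.63 to −0.42, adjusted p = 0.061 to 0.11).

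Core extension had 6 tested genes, of which 1 rose and 2 fell in each line. Removing the trend left 1 that rose and 1 that fell in KI and 0 that rose and 1 that fell in WT cells, and with ERCC scaling 0 rose and 4 fell in KI and 0 rose and 3 fell in WT cells. C1GALT1, the enzyme that adds galactose to GalNAc, was at 25.6 and 24.5 CPM in treated against 58.4 and 56.8 CPM in untreated KI cells, and at 29.8 and 29.9 CPM in treated against 47.7 and 67.8 CPM in untreated WT cells. Its log2 fold change was −1.20 ± 0.17 in KI (adjusted p = 0.00051) and −0.95 ± 0.17 in WT cells (adjusted p = 0.0028). With the trend removed it was −0.19 and −0.28 (adjusted p = 0.20 and 0.075). C1GALT1C1, its chaperone Cosmc, fell by 1.59 ± 0.16 in KI (adjusted p = 0.00018) and 1.36 ± 0.16 in WT cells (adjusted p = 0.00053). With the trend removed it fell by 0.66 and 0.63 (adjusted p = 0.0067 and 0.011). B3GNT3, which lengthens the core, had 0.92 ± 0.28 in KI (adjusted p = 0.020) and 0.79 ± 0.27 in WT cells (adjusted p = 0.048, and −0.07 with ERCC scaling). These calls ended without any 1 of 3 and 7 libraries (0.74 to 0.97 in KI and 0.41 to 0.85 in WT cells, adjusted p = 0.058 to 0.13 and 0.054 to 0.19). Both also ended with the trend removed (0.30 and 0.45, adjusted p = 0.33 and 0.15). With ERCC scaling the KI value of B3GNT3 was 0.39 (adjusted p = 0.46).

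Sialylation and capping had 10 tested genes, of which 4 rose and 4 fell in KI cells and 2 rose and 3 fell in WT cells. Once the trend was removed, 1 rose and 2 fell in KI and 1 rose and 1 fell in WT cells, and with ERCC scaling 1 rose and 4 fell in KI and 0 rose and 3 fell in WT cells. ST3GAL1, which caps the galactose of the core with sialic acid, was at 31.1 and 27.4 CPM in treated against 8.36 and 10.2 CPM in untreated KI cells, and at 35.5 and 36.0 CPM in treated against 17.7 and 13.7 CPM in untreated WT cells. It rose by 1.66 ± 0.19 in KI (adjusted p = 0.00021) and 1.18 ± 0.18 in WT cells (adjusted p = 0.0014). It stayed called with the trend removed (0.85 and 0.61, adjusted p = 0.0033 and 0.018) and was 1.13 and 0.36 with ERCC scaling (adjusted p = 0.0100 and 0.33). SLC35A1, the Golgi transporter of CMP-sialic acid, fell by 1.45 ± 0.16 in KI (adjusted p = 0.00019) and 1.26 ± 0.16 in WT cells (adjusted p = 0.00064). With the trend removed it fell by 0.38 and 0.42 (adjusted p = 0.018 and 0.015). ST6GALNAC3 fell by 1.68 ± 0.29 in KI cells (adjusted p = 0.0012). In WT cells its value was −0.89 ± 0.30 (adjusted p = 0.045), a call that ended without any 1 of 7 libraries (−0.91 to −0.84, adjusted p = 0.073 to 0.14). That call also ended with the trend removed (−0.39, adjusted p = 0.37). ST6GALNAC5, a related sialyltransferase, had −1.49 ± 0.40 in KI cells (adjusted p = 0.011), which ended without any 1 of 3 libraries (−1.53 to −1.17, adjusted p = 0.052 to 0.082) and with the trend removed (adjusted p = 0.058). In WT cells its value was 0.43 ± 0.40 (adjusted p = 0.43). CMAS, which makes CMP-sialic acid, had −0.76 ± 0.20 in KI cells (adjusted p = 0.011), or −0.14 with the trend removed (adjusted p = 0.59). In WT cells it had −0.72 ± 0.20 (adjusted p = 0.021), a call that ended without any 1 of 3 libraries (−0.80 to −0.42, adjusted p = 0.070 to 0.13) and with the trend removed (−0.21, adjusted p = 0.42).

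Mucins and other O-glycosylated proteins had 9 tested genes, of which 5 rose and 1 fell in KI cells and 4 rose and 1 fell in WT cells. Without the GC and length trend, 3 rose and 1 fell in KI and 2 rose and 1 fell in WT cells, and with ERCC scaling 0 rose and 1 fell in KI and 0 rose and 2 fell in WT cells. CD164, a small membrane sialomucin, was at 153 and 153 CPM in treated against 455 and 377 CPM in untreated KI cells, and at 156 and 168 CPM in treated against 301 and 388 CPM in untreated WT cells. It changed by −1.44 ± 0.16 on the log2 scale in KI (adjusted p = 0.00019) and −1.09 ± 0.16 in WT cells (adjusted p = 0.00099). The TRAIL receptors TNFRSF10A and TNFRSF10B, known acceptors of O-glycans, changed by 0.57 ± 0.13 and 0.73 ± 0.15 in KI cells (adjusted p = 0.0040 and 0.0031), with 0.04 and 0.20 under ERCC scaling. In WT cells they changed by 0.48 ± 0.12 and 0.56 ± 0.15 (adjusted p = 0.015 and 0.018), turned to −0.32 and −0.27 with ERCC scaling, and lost the call without either treated WT library (0.47 to 0.59, adjusted p = 0.072 to 0.11). The WT call of TNFRSF10B also ended with the trend removed (0.27, adjusted p = 0.11). Among the other family members GALNT11 fell by 0.81 ± 0.13 in KI (adjusted p = 0.00079) and 0.63 ± 0.13 in WT cells (adjusted p = 0.0049, and 0.062 without the first treated WT library). GALNT18 had 0.83 ± 0.20 in KI cells (adjusted p = 0.0068), or 0.20 with the trend removed (adjusted p = 0.33), and in WT cells had 0.57 ± 0.19 (adjusted p = 0.044, −0.27 with ERCC scaling), a call that ended without any 1 of 7 libraries (0.33 to 0.68, adjusted p = 0.058 to 0.23). With the trend removed its WT value was 0.19 (adjusted p = 0.35), and with ERCC scaling its KI value was 0.30 (adjusted p = 0.46).

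**Figure D5:**
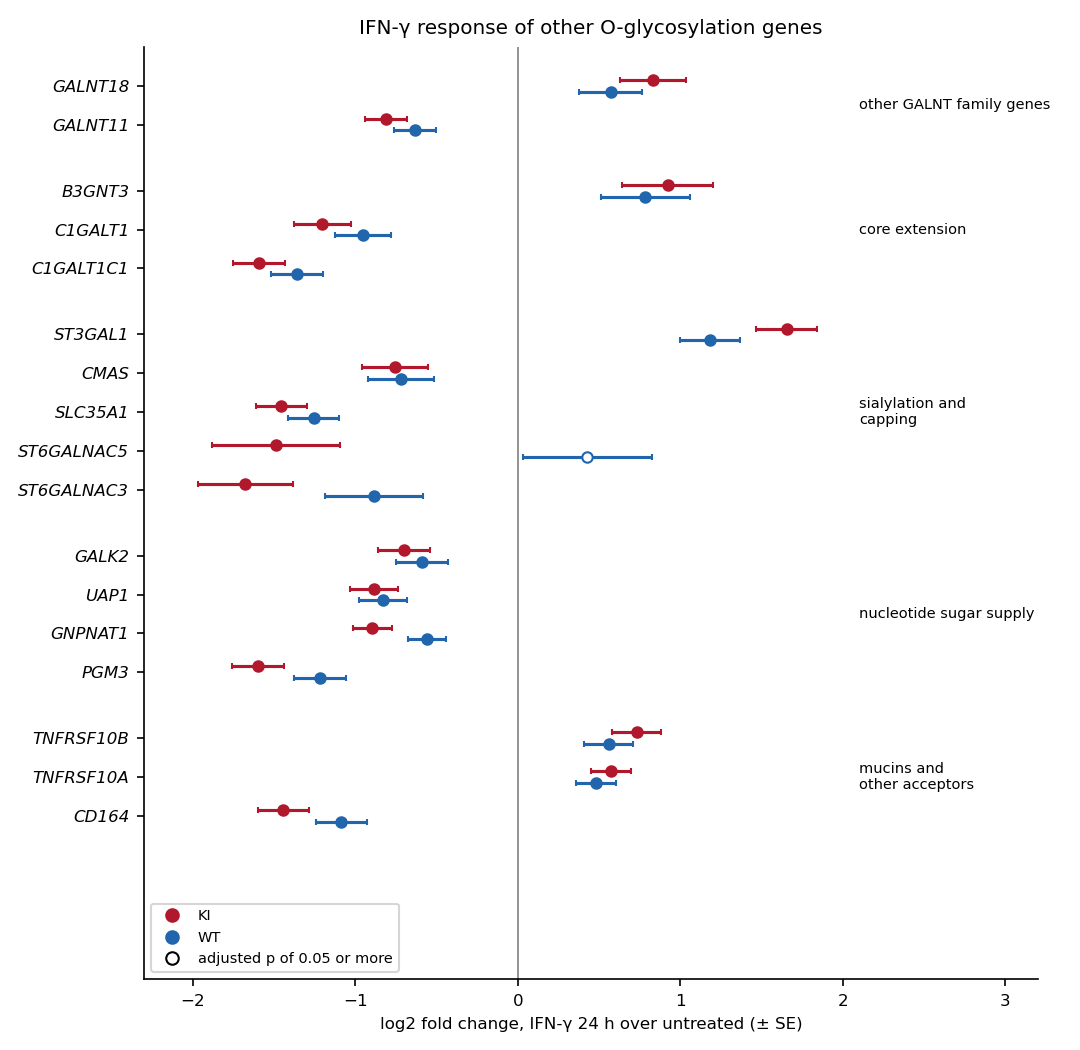
Log2 fold change of IFN-γ over untreated cells under TMM scaling (± SE) for called pathway genes with large changes in each list, KI above WT for each gene, with open circles where the adjusted p was 0.05 or more. C1GALT1, C1GALT1C1, SLC35A1, PGM3, UAP1 and CD164 lie left of 0 and ST3GAL1 right of 0 in both lines, and B3GNT3, GALNT18, TNFRSF10A and TNFRSF10B in WT cells were negative with ERCC scaling.

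The genes next to GALNT14 gave no call between the lines. LCLAT1, at a distance of 266 kb, was at a log2 difference of 0.10 ± 0.15 with IFN-γ (adjusted p = 0.84) and 0.24 ± 0.15 without it (adjusted p = 0.35). MEMO1, at 710 kb on the other side, had 0.03 ± 0.13 and −0.17 ± 0.13 (adjusted p = 0.96 and 0.43). XDH and LBH were close to absent from both lines, at means of 0 to 1.08 CPM. Next to GALNT4, DUSP6, a phosphatase of ERK at a distance of 166 kb, averaged 345 CPM in treated KI against 180 CPM in treated WT cells, and 565 CPM in untreated KI against 247 CPM in untreated WT cells. Its log2 difference was 0.94 ± 0.13 with IFN-γ (adjusted p = 0.0051) and 1.20 ± 0.13 without it (adjusted p = 0.0013). The call with IFN-γ ended without any 1 of 4 libraries (0.87 to 1.02, adjusted p = 0.055 to 0.085) and with ERCC scaling (0.89, adjusted p = 0.054). KITLG, 939 kb away, had 0.66 ± 0.17 without IFN-γ (adjusted p = 0.044), a call that ended without any 1 of 6 libraries (0.45 to 0.67, adjusted p = 0.081 to 0.19) and with ERCC scaling (0.36, adjusted p = 0.12), and −0.03 ± 0.17 with it (adjusted p = 0.96). ATP2B1, at 63.2 kb, had −0.59 ± 0.15 with IFN-γ (adjusted p = 0.068) and −0.01 ± 0.14 without it (adjusted p = 0.99), and DCN was at 0.56 to 1.41 CPM.

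Over the 8 libraries and 11423 genes of sufficient level, the log2 CPM of PAQR5 was most like that of GALNT14 (Pearson's r = 0.996), followed by STK39 (0.991), NFIB (0.989), DSC3 (0.987) and UBE2E2 (0.987). These genes lie on chromosomes 15, 2, 9, 18 and 3. Pearson's r does not measure the size of a difference, which varied among them. PAQR5 averaged 20.2 CPM in treated and 19.6 CPM in untreated KI cells, against 37.1 and 36.75 CPM in WT cells. In the same order, STK39 had 69.1 and 56.1 against 215 and 203 CPM. DSC3 had 7.16 and 7.07 against 33.2 and 27.9 CPM, and UBE2E2 had 1.39 and 1.52 against 13.3 and 11.2 CPM. NFIB, a transcription factor, averaged 0.825 CPM in treated and 0.635 CPM in untreated KI cells, against 13.9 CPM in treated and 15.3 CPM in untreated WT cells. For GALNT4 the most alike were TSPYL4 (0.954), ALDH6A1 (0.942), DNM3 (0.940), ZEB1 (0.939) and SUMO3 (0.939), a likeness to levels that depend on how shared reads were split. The 8 points share the 4 groups, the lines and the library scaling, so these values describe the libraries only.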

How the data were processed

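The assay was RNA-seq of rRNA-depleted total RNA, with 2 libraries in each of 4 groups taken from the sample labels. Per the submitters' processing notes, the authors trimmed reads with Trimmomatic and quantified them with kallisto on GRCh38. Neither tool versions nor the transcript annotation were given in the labels. The values deposited by the authors are estimated counts per Ensembl gene ID (58.3% of nonzero values are not whole, tolerance 1e-06), with 63 ERCC spike-ins, and were rounded to whole numbers for the tests. GENCODE 29 on GRCh38 named 35583 of 40295 IDs and gave positions, and lengths and GC content from the longest coding transcript.

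Genes were filtered with filterByExpr of edgeR 4.0.16 (R 4.3.3, minimum count 10), which left 16519, scaled by TMM (factors 0.860 to 1.13) and fitted with group as the only factor over all 8 libraries (common dispersion 0.0415). Calls used the quasi-likelihood F test with Benjamini-Hochberg adjustment over all tested genes and a threshold of 0.05. The SE is the size of the log2 fold change over the square root of F. Few counts limit GALNT14 in KI cells, and shared reads limit GALNT4.

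The members and all lists were chosen with earlier results of these data known. Named beyond the members were the called pathway genes that reach a group mean of 5 CPM (up to 4 with the largest change per list and contrast), the 2 nearest tested coding genes on each side of GALNT14 and GALNT4, and the 5 genes most correlated with each of these. Some called genes at lower levels are counted and not named. The values of 1 further called gene are not reported here. Alternatives were DESeq2 1.42.0 and its size factors, limma-voom (limma 3.58.1), upper-quartile and ERCC scaling, other filters, a loess offset on GC content and length (span 0.3, GC known for 92.4% of tested genes), the replicate block, only the groups compared, GALNT4 summed with POC1B-GALNT4, and each library left out.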

Additional observations from a re-analysis of the deposited data

How the results depend on the processing

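The members called in WT cells, 7 under TMM scaling, were 4 with ERCC scaling, 3 with the GC and length trend removed and 4 to 7 without 1 library. In KI cells 6, of which 3 were higher and 3 lower, became 2 with the trend removed. With ERCC scaling they became 4, with 0 higher and 4 lower as in WT cells, so the directions changed more than the count. The difference between the responses, with 0 calls, had 1 without a filter on low counts (GALNT4), and the mean response over both lines, with 7, had 4 with ERCC scaling. The other alternatives kept these counts within 1.5 times. Where a group was left with 1 library, that library was assumed to vary like the others. Same-numbered libraries deviated together between the 2 KI groups (r = 0.27) but not in the other 5 pairs of groups (−0.002 to 0.074), so the numbers were not taken to pair the libraries. The fit with the replicate block called 8 members in WT cells, GALNT6 added at 0.52 (adjusted p = 0.049), 6 in KI cells and 0 for the difference. A fit on only the groups compared does not apply to the difference and the mean, which use all 4 groups.

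Single values changed sign as follows, and the cause was not tested. With ERCC scaling the KI response of GALNT12 was −0.17. WT responses were −0.33 for GALNT6, −0.15 for GALNT10, −0.19 for GALNT12, −0.46 for GALNT14, −0.27 for GALNT18, −0.072 for B3GNT3, −0.32 for TNFRSF10A, −0.27 for TNFRSF10B and −0.081 for MED12. The differences of GALNT3, GALNT7 and GALNT12 were 0.004, 0.034 and 0.019. With the trend removed GALNT5 was 0.39 in KI and 0.19 in WT cells, GALNT14 −0.088 and −0.14, and the differences of GALNT2 and GALNT7 −0.13 and 0.044. With upper-quartile factors GALNT5 was 0.03 in KI and 0.004 in WT cells. The difference of GALNT5 was −0.009 with DESeq2 and with its size factors, and that of GALNT14 −0.005 with limma-voom. Without both KI libraries numbered 2, GALNT5 and GALNT14 in KI cells were 0.027 and −1.13, and the difference of GALNT14 was −1.48. Without 1 library, GALNT5 ranged from −0.11 to 0.05 in KI and −0.21 to 0.078 in WT cells, and GALNT14 from −0.66 to 1.38 in KI cells. Differences then ranged from −0.052 to 0.41 for GALNT2, −0.59 to 0.023 for GALNT3, −0.11 to 0.14 for GALNT5, −0.45 to 0.01 for GALNT7 and −1.003 to 1.04 for GALNT14.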
